A study of Mus musculus with 52 samples.

Results

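The clustered histone genes were taken as every gene symbol that starts with Hist1h, Hist2h, Hist3h or Hist4h, which gave 68 of the 24421 symbols in the count tables. By the class in the symbol they comprised 6 genes of the linker histone H1 and 18 of H2A, 19 of H2B, 12 of H3 and 13 of H4, which form the nucleosome core. In the mouse genome (GRCm38) 54 of them lie on chromosome 13, 10 on chromosome 3, 3 on chromosome 11 and 1 on chromosome 6. RNA came from Cilia-APEX-IMCD3 cells, an immortalised line of the mouse inner medullary collecting duct, edited with a cytosine base editor.

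A total of 52 libraries came from 13 clones, counted by label, with 4 technical replicate libraries per clone, and every group member is 1 clone. The methods of the study name 4 control and 3 mutant clones in all. Some clones may thus have been sequenced in both states under different labels. The labels do not pair clones between states. Each label is treated here as a separate clone, also in the interaction test. The ciliated cells comprised 3 homozygous mutant clones (WDR341, WDR343 and WDR60) and 4 control clones (conD8, conH12, conA4 and conG7). The non-ciliated cells comprised 2 homozygous mutant clones (BE_W34 and BE_W60) and 4 control clones (AB_Co, BE_Co1, BE_Co2 and BE_Co3). Wdr34 and Wdr60 code for the intermediate chains of dynein-2, the motor that returns cargo from the tip of the cilium, and the study made Wdr34 p.Arg183Trp, Wdr34 p.Gly394Ser and Wdr60 p.Ala911Val. The labels do not say which Wdr34 allele a clone carries. By the text of the study the p.Gly394Ser clone was not yet at hand for the non-ciliated libraries, which leaves p.Arg183Trp for BE_W34, so that the mutant groups of the 2 states hold different alleles, also in the interaction test. According to the methods of the study, controls had also been through base editing, with a guide vector that held no target oligo. The methods describe this for controls in general and name no clone. In the study, the p.Gly394Ser clones also carried an unintended missense change on 1 copy of Wdr34. Cilia were induced by serum starvation, according to the methods of the study, whereas the labels give the same serum-containing medium for every library. The ciliated libraries of the p.Gly394Ser clone were sequenced after the non-ciliated ones. When the other ciliated libraries were sequenced is not stated. Ciliation, serum and any difference in sequencing time cannot be told apart in any comparison between states.

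Clustered histone genes are switched on together as cells enter S phase and supply the protein that packs newly made DNA. Most of their transcripts end in a conserved stem-loop, bound by SLBP, and not in a poly(A) tail, and are rapidly degraded when replication stops. Some of these genes can also give longer, polyadenylated transcripts in cells that do not divide, and histones of non-dividing cells otherwise come from the replacement histone genes, which lie elsewhere in the genome. The libraries were made with an mRNA kit, and how completely it captured transcripts without a poly(A) tail was not tested.

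The 16-base stem-loop consensus was found in annotated GENCODE transcripts of 46 of the 68 genes, against 86 of all 55341 annotated genes (0.155%). The most frequent forms and a rarer one are printed because they show how little this element differs between classes. The first was found in 26 genes of classes H1, H2A, H2B and H3, among them Hist1h1c, Hist1h2ae, Hist1h2bg and Hist3h2a. The second was found in 6 genes, among them Hist1h2bk, Hist1h3c and Hist1h3e, and the third in 7 genes, all of class H4. The fourth was found in Hist1h4b and Hist1h4j, and another form, not printed, in Hist1h4i and Hist2h4.
Stem-loop of Hist1h1c: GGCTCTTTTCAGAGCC
Stem-loop of Hist1h3c: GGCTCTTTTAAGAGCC
Stem-loop of Hist1h4d: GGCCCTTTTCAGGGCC
Stem-loop of Hist1h4b: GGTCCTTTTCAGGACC

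The genes differed more in what follows the stem-loop. In 23 genes the longest annotated transcript ran at least 100 bases past it, in 23 it ended sooner, and in 22 no annotated transcript held it. The transcript of Hist1h1c ran 840 bases past the stem-loop and that of Hist3h2a 1643 bases, whereas those of Hist1h3c and Hist1h2bk ended 74 and 30 bases past it. Hist1h2bc and Hist2h2be had no stem-loop in their annotated transcripts. These groups are used below as a description of the annotation, not of the transcripts made in these cells.

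RefSeq promoter windows, 250 bases before to 50 after a gene start, were matched for 62 genes. The CCAAT box (CCAAT, either strand) was present in 53 of these 62 (85.5%), against 37.4% of 32851 promoter windows of the same length. It was present in every window of classes H1, H2A, H2B and H3 and in 3 of 12 windows of class H4. The TATA box (TATAAA, either strand) was present in 56.5% against 13.6%. The octamer (ATTTGCAT, either strand) was present in 22.6% against 1.74%, in 7 of 18 H2A and 7 of 16 H2B windows and in 0 of the H1, H3 and H4 windows. None of the 3 motifs contains another. The 5 windows below belong to genes whose counts are described in detail, with capitals marking these motifs, and are written 5′ to 3′ on the strand of the gene (RefSeq, GRCm38.p6). They are Hist1h1c (chr13:23738557-23738856, plus strand), Hist1h2bg (chr13:23571150-23571449, plus strand), Hist1h2bk (chr13:22035571-22035870, plus strand), Hist1h3c (chr13:23745472-23745771, minus strand) and Hist1h4b (chr13:23756687-23756986, plus strand). The window of Hist1h2bg also holds the start region of Hist1h2ae, which is read in the other direction.
Hist1h1c: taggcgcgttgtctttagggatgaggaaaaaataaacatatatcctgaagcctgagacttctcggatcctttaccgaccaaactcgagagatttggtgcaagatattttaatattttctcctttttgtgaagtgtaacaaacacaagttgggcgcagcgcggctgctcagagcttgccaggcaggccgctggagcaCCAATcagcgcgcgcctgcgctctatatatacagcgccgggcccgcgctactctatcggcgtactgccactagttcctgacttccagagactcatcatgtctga
Hist1h2bg: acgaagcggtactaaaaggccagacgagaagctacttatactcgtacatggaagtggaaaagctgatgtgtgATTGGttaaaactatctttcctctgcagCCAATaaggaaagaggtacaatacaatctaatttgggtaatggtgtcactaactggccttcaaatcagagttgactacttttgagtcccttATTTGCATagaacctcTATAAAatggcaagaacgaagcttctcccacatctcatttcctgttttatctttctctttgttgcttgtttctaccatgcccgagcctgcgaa
Hist1h2bk: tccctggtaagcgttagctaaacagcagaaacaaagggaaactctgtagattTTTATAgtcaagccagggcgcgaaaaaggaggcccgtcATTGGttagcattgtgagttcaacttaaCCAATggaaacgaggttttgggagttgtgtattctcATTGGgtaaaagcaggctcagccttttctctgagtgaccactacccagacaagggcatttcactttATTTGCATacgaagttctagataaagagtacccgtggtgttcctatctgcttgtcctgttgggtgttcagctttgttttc
Hist1h3c: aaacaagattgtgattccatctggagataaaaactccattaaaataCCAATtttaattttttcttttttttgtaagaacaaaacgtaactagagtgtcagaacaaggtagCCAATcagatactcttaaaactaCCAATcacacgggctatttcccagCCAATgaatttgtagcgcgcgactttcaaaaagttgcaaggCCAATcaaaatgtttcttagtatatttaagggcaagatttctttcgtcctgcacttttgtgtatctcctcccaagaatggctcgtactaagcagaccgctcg
Hist1h4b: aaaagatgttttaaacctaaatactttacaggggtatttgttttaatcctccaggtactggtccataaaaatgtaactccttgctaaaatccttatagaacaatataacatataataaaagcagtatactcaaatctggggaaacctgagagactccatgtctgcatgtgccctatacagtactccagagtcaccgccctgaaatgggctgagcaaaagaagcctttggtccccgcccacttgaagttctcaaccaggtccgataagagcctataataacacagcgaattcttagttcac

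The window of Hist1h3c held 5 copies of CCAAT and neither of the other motifs, and that of Hist1h4b held none of the 3. The windows of Hist1h2bg and Hist1h2bk held all 3.

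Library totals were 14816218 to 28084979 counts. The 68 genes together took 0.00563% to 0.0184% of the counts of a library, and 43 to 57 of them had at least 1 count in a given library. Hist1h2ap, Hist1h2bq, Hist1h2br, Hist1h4m, Hist2h2aa1, Hist2h3c1 and Hist2h3c2 were at 0 counts in all 52 libraries, which allows up to 0.00322 CPM (the usual scaling of counts to the library total) over all libraries, for counting error only. The testis histone genes Hist1h1t, Hist1h2aa and Hist1h2ba had 6, 3 and 7 counts in all. Near-identical sequence limits what these counts mean, because 54 of the 68 genes share at least 1 window of 150 bases with another gene. For Hist2h2aa2, Hist2h2bb and Hist2h3b, as for 2 of the genes at 0, every such window is shared, so that reads could be assigned to the wrong copy. In the other genes at 0 the shared part was 59.4% to 92.4%. Among genes described singly below it was 90.5% in Hist1h3h, 86.1% in Hist1h2ai, 84.8% in Hist1h2ah and 60.9% in Hist1h2bk. It was 15.6% in Hist1h3c and 0% in Hist1h1c and Hist2h2be. Reads of all genes with shared windows could be assigned to another gene. Of all 94280 counts, 57.4% fell on Hist1h1c, Hist1h2bc and Hist2h2be. Counts are not corrected for transcript length, so these shares are of counts and do not rank the genes by transcript number.

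A total of 8 libraries stood apart, with a median correlation below 0.98 with the other libraries of their own clone across 10796 genes. These were BE_W60 library 1, AB_Co library 1, conA4 library 1, conG7 library 4 and all 4 libraries of WDR60, and for each the nearest library of another clone correlated less well than this median. Marker genes also differed between clones. Of the 10 markers of kidney epithelium all had counts, but Aqp2 was at or near 0 in every clone, and Cdh1, which codes for E-cadherin, was 4.22 CPM in BE_Co2 and 14.4 CPM in conG7 against 241 to 649 CPM in the other clones. Epcam, Krt8, Krt18 and Krt19 were also lowest of their controls in these 2 clones, whereas the kidney genes Cdh16 (266 CPM in BE_Co2 and 841 CPM in conG7), Pax2 (277 and 310 CPM) and Pax8 (300 and 419 CPM) were highest of their controls there. Among the ciliated mutants, WDR343 was lowest in Cdh1, Epcam and these keratins, with Krt8 at 76.8 CPM against 537 and 558 CPM and Krt18 at 148 CPM against 763 and 727 CPM in the other two clones. The 10 markers summed to 1034 to 3448 CPM in non-ciliated controls, 2671 to 2672 CPM in non-ciliated mutants, 1709 to 4735 CPM in ciliated controls and 1847 to 3733 CPM in ciliated mutants. Of 6 fibroblast markers 5 had counts and Thy1 had none, with a clone sum of at most 5.42 CPM apart from WDR343 (31.6 CPM, nearly all Dcn). Of 4 endothelial markers the clone sum was at most 0.186 CPM. The 4 leukocyte markers summed to 169 to 297 CPM in ciliated and to 16.6 to 50.3 CPM in non-ciliated clones, almost wholly from Csf1r, while Ptprc was at most 0.902 CPM and Cd3e was at 0. The part of these differences between clones in the histone values was not tested. In bulk RNA, fewer cells in S phase and less histone RNA per cell cannot be told apart.

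The summed level of the 68 genes, in CPM scaled by TMM over all libraries, showed how clones compare (mean ± SD, n = 4 libraries each). In non-ciliated controls it was 79.6 ± 9.34 in AB_Co, 86.8 ± 8.54 in BE_Co1, 65.0 ± 3.52 in BE_Co2 and 62.9 ± 4.23 CPM in BE_Co3. In non-ciliated mutants it was 96.3 ± 5.80 CPM in BE_W34 and 116 ± 25.0 CPM in BE_W60. The latter SD came from library 1, which stood apart, at 78.7 CPM, whereas the other 3 libraries of BE_W60 were at 128 to 130 CPM. In ciliated controls it was 63.4 ± 4.33 in conD8, 125 ± 8.18 in conH12, 91.2 ± 8.30 in conA4 and 118 ± 7.61 CPM in conG7. In ciliated mutants it was 143 ± 6.26 in WDR341, 170 ± 3.502 in WDR343 and 93.8 ± 9.90 CPM in WDR60. Both non-ciliated mutant clones were thus above all 4 non-ciliated controls, while in ciliated cells WDR60 lay within the range of the controls and the other two mutant clones lay above it. The ciliated controls spread wider than the non-ciliated controls, with means over clones of 99.4 ± 28.03 and 73.6 ± 11.6 CPM (SD, n = 4 clones each).

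**Figure D1:**
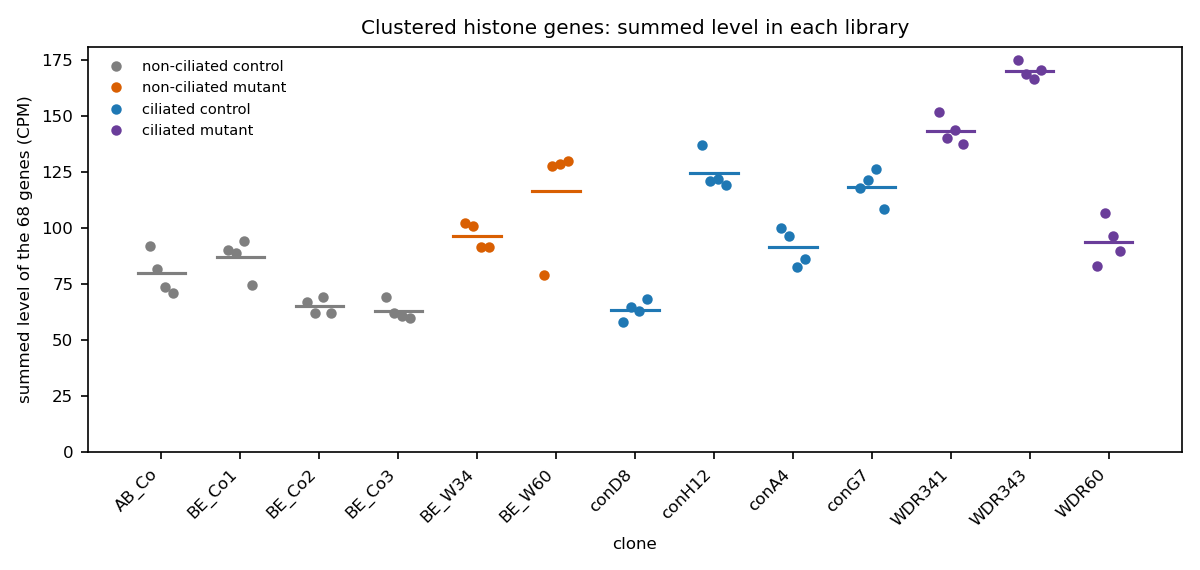
Summed CPM of the 68 clustered histone genes in each of the 13 clones, with points for the 4 libraries of a clone, a line for their mean and colours for state and genotype. Both non-ciliated mutant clones lie above the 4 non-ciliated controls (96.3 and 116 against 62.9 to 86.8 CPM), and the ciliated controls range from 63.4 to 125 CPM.

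The first comparison asked how the histone genes of control clones differ between states. In the controls the classes went in opposite directions. The summed level of H1 was 29.2 ± 9.98 CPM in ciliated and 7.93 ± 2.96 CPM in non-ciliated controls (SD, n = 4 clones each), a ratio of 3.69. H2B was 53.5 ± 15.9 against 30.1 ± 12.1 CPM, a ratio of 1.78. H2A was 8.65 ± 1.71 against 14.3 ± 3.29 CPM, H3 4.32 against 14.9 CPM and H4 3.67 against 6.32 CPM, with ratios of 0.61, 0.29 and 0.58. The higher sums rested on few genes. Hist1h1c, Hist1h2bc and Hist2h2be together were 2.89 times higher in ciliated than in non-ciliated controls, and the other 65 genes together were at 0.56 times the non-ciliated level (27.1 against 48.5 CPM). Of the 60 genes with a count in these libraries, the mean of the clone means was higher in ciliated controls for 15 and lower for 45, against 51.3% higher and 48.7% lower among all genes with a count.

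All 4 ciliated control clones were above all 4 non-ciliated control clones for 5 of these 60 genes (7.98% of all genes), Hist1h1c, Hist1h2bc, Hist1h2bf, Hist2h2aa2 and Hist3h2a. All were below for 22 of 60 (9.15% of all genes). Leaving out the libraries that stood apart gave 5 and 20 genes (7.59% and 8.71% of all genes). The edgeR quasi-likelihood test with Benjamini-Hochberg (BH) adjustment over 11856 genes, called at an adjusted p under 0.05 and at least 2-fold, could be run on 21 of the 68 genes after the filter on low counts. It called 4 higher (6.29% of all genes tested were called higher) and 10 lower (3.99%). With the clone as a block in a voom fit of the same 21 genes, 4 were called higher (4.48% of all genes) and 4 lower (3.37%), namely Hist1h2ai, Hist1h2bk, Hist1h3c and Hist1h3h. With each clone as 1 sample, 50 genes were tested, of which 4 were called higher (2.79%) and 18 lower (2.24%). Without a filter, 60 genes were tested, of which 5 were called higher (7.8% of all genes) and 29 lower (6.15%). Because libraries of a clone are technical replicates, these p-values measure the spread between libraries more than between clones. For part of the genes the exact 2-sided permutation test over 4 against 4 clone means is given beside them. Its smallest possible p is 0.0286.

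Hist1h1c, which codes for the linker histone H1.2 (ENSMUSG00000036181.2, chr13:23738808-23740367, plus strand), was at 5.48 in AB_Co, 6.90 in BE_Co1, 4.73 in BE_Co2 and 2.79 CPM in BE_Co3. In ciliated controls it was at 16.05 in conD8, 33.7 in conH12, 24.2 in conA4 and 36.4 CPM in conG7. The clones did not overlap, and neither did the libraries, which ranged from 2.52 to 7.95 CPM (median 4.59) without and from 14.8 to 42.3 CPM (median 26.8) with cilia. The log2 fold change was 2.47 ± 0.18 (SE, edgeR, adjusted p = 6.01e-13), and the exact permutation p was 0.0286. The other linker histones did not follow it. Hist1h1e fell, with a log2 fold change of -1.12 ± 0.30 (edgeR, adjusted p = 0.00188), and a mean of 0.715 ± 0.358 against 1.57 ± 0.857 CPM (SD, n = 4 clones each), although conG7 (1.13 CPM) lay above AB_Co (1.06 CPM). Its annotated transcript overlaps those of Hist1h2be and Gm11398 on the same strand, so its counts are uncertain. Hist1h1d was at 0.524 ± 0.270 against 0.534 ± 0.236 CPM, with an exact permutation p of 0.886.

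Among the H2B genes, Hist1h2bc (ENSMUSG00000018102.5, chr13:23684199-23692908, plus strand) was at 4.86 to 9.84 CPM in the non-ciliated and at 13.8 to 31.0 CPM in the ciliated control clones. The highest non-ciliated library (11.1 CPM) was below the lowest ciliated one (11.8 CPM). The log2 fold change was 1.66 ± 0.15 (edgeR, adjusted p = 6.11e-11, exact permutation p = 0.0286). Hist1h2bg rose as well, from 1.08 ± 0.406 to 2.90 ± 1.09 CPM, with a log2 fold change of 1.42 ± 0.24 (edgeR, adjusted p = 5.59e-06), although BE_Co1 (1.61 CPM) lay above conD8 (1.34 CPM). Hist2h2be, which codes for the H2B variant known from olfactory neurons (ENSMUSG00000068854.7, chr3:96221119-96223738, plus strand), overlapped between states. It was at 29.0 CPM in AB_Co and at 6.10 to 8.72 CPM in the other three non-ciliated controls, against 12.5 to 37.6 CPM in the ciliated controls. Its log2 fold change of 0.76 ± 0.29 passed the adjusted p (0.0225, edgeR) but not the 2-fold limit, and the exact permutation p was 0.171. Hist3h2ba, on chromosome 11, was at 3.403 ± 1.06 against 2.24 ± 0.968 CPM (exact permutation p = 0.143).

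Hist1h2bk went the other way from Hist1h2bc. This H2B gene (chr13:22035870-22036345, plus strand) was at 1.22 in AB_Co, 3.18 in BE_Co1, 2.63 in BE_Co2 and 2.17 CPM in BE_Co3, and at 0.314 in conD8, 0.364 in conH12, 0.342 in conA4 and 0.351 CPM in conG7. The ciliated clones were all low and close to each other, and no library overlapped. The log2 fold change was -2.72 ± 0.22 (edgeR, adjusted p = 5.08e-12, exact permutation p = 0.0286). Hist1h2bm and Hist1h2bp did not pass the filter and were at 0.110 ± 0.0507 against 0.508 ± 0.167 CPM and at 0.170 ± 0.0828 against 0.615 ± 0.211 CPM, each with an exact permutation p of 0.0286. Hist1h2bl was at 0.142 ± 0.0852 against 0.454 ± 0.2501 CPM (exact permutation p = 0.0571). The ciliated levels of these 3 genes lie near the value of 3 counts, which corresponds to 0.107 to 0.202 CPM depending on the library.

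Of class H2A, Hist3h2a rose and the genes of the chromosome 13 cluster that were called fell. Hist3h2a (ENSMUSG00000078851.4, chr11:58954685-58956830, plus strand) was at 1.69 to 2.57 CPM in non-ciliated and at 3.46 to 5.30 CPM in ciliated control clones, without overlap of the clones. Its log2 fold change was 1.05 ± 0.13 (edgeR, adjusted p = 5.37e-08, exact permutation p = 0.0286). It overlaps Trim17 on the same strand and shares sequence windows with it. Among the H2A genes that passed the filter, Hist1h2ai had the lowest log2 fold change, and it fell from 1.77 ± 0.687 to 0.399 ± 0.0994 CPM (-2.13 ± 0.25, edgeR, adjusted p = 7.05e-09). Hist1h2ah, Hist1h2ae, Hist1h2ab and Hist1h2ad had log2 fold changes of -1.97, -1.70, -1.44 and -1.40 (edgeR, adjusted p of at most 0.000185). Clone means of all 5 lay below every non-ciliated control clone in every ciliated control clone. For Hist1h2ae this no longer held without the libraries that stood apart. The exact permutation p was 0.0286 for Hist1h2ai, Hist1h2ah, Hist1h2ae and Hist1h2ab. Hist1h2ag and Hist1h2an did not pass the filter and were at 0.198 against 1.24 CPM and at 0.203 against 1.02 CPM, without overlap of the clones.

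Of class H3, Hist1h3c took the most counts (ENSMUSG00000069310.4, chr13:23744973-23745602, minus strand). It was at 3.28 in AB_Co, 7.88 in BE_Co1, 6.92 in BE_Co2 and 7.31 CPM in BE_Co3, and at 1.37 in conD8, 0.927 in conH12, 0.905 in conA4 and 0.787 CPM in conG7. Every ciliated library (0.547 to 2.15 CPM) was below every non-ciliated library (2.37 to 8.97 CPM), and the log2 fold change was -2.66 ± 0.19 (edgeR, adjusted p = 4.30e-13, exact permutation p = 0.0286). Hist1h3h and Hist1h3e fell as well, with log2 fold changes of -2.57 ± 0.30 and -1.60 ± 0.33 (edgeR, adjusted p = 8.42e-09 and 8.54e-05, exact permutation p = 0.0286 and 0.0571). Of class H4, Hist1h4b was at 0.150 ± 0.0654 against 1.06 ± 0.362 CPM and Hist1h4d at 0.183 ± 0.0417 against 1.05 ± 0.335 CPM, both without overlap of the clones and both outside the genes tested. Hist1h4i, which has 330 bases past its stem-loop, was at 1.59 ± 0.556 against 0.918 ± 0.189 CPM (log2 fold change 0.79 ± 0.22, edgeR, adjusted p = 0.00262, exact permutation p = 0.0857).

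**Figure D2:**
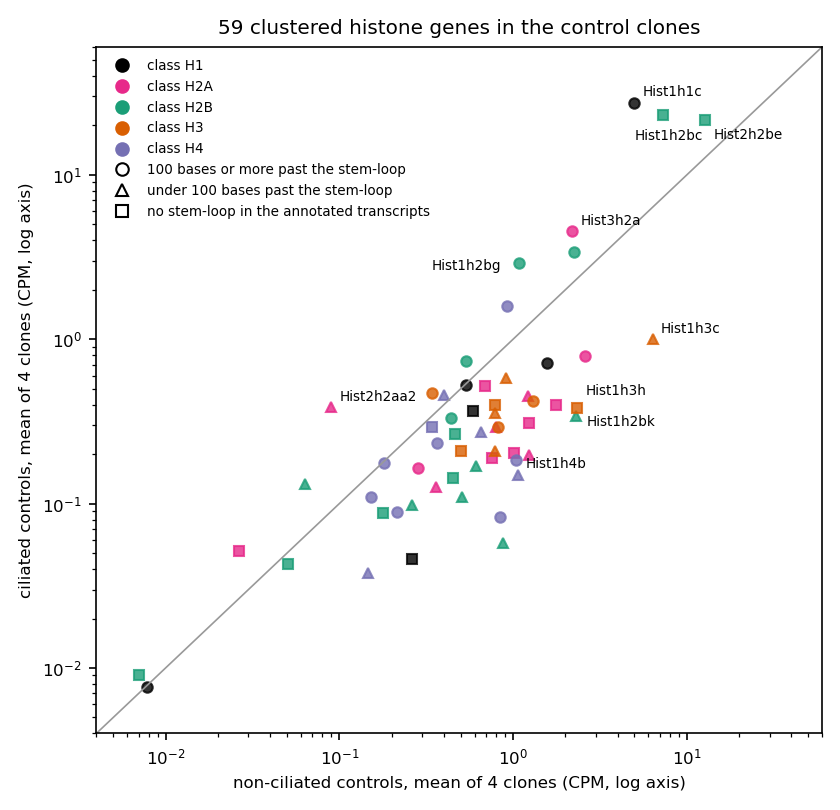
Mean CPM of 59 clustered histone genes in the 4 non-ciliated (x axis) and 4 ciliated control clones (y axis), both on log axes, with colours for the class, shapes for the annotated transcript end and a line of equal level. Most genes lie below the line, such as Hist1h3c and Hist1h2bk, while Hist1h1c and Hist1h2bc lie above it.

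Grouped by annotated transcript end, the 23 genes whose transcript runs far past the stem-loop summed to 2.003 times the non-ciliated level in ciliated controls, and the 22 genes without a stem-loop to 1.54 times. The 23 genes whose transcript ends soon after the stem-loop summed to 0.28 times. The sums of the first 2 groups are carried by Hist1h1c and by Hist1h2bc and Hist2h2be. By number, all ciliated control clones were below all non-ciliated ones in 4 of 21 genes with a long end, 7 of 20 without a stem-loop and 11 of 19 with a short end (9.15% of all genes). They were all above in 2, 1 and 2 of these genes (7.98% of all genes). Hist1h2ae, which has a long end, was among those below, but not without the libraries that stood apart.

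Pairs of H2A and H2B genes that start back to back share 1 promoter region. There were 13 such pairs, 172 to 305 bases apart, of which 10 had both genes measured in both states. In 5 pairs both genes were lower in ciliated controls, such as Hist1h2ah and Hist1h2bk (ratios of 0.251 and 0.149). In 0 pairs both were higher. In the other 5 pairs the ratios lay on opposite sides of 1. Hist1h2ae was at 0.304 times and Hist1h2bg at 2.67 times the non-ciliated level, although 175 bases separate them within the window printed above. Hist1h2ac and Hist1h2bc were at 0.583 and 3.16 times, Hist2h2ac and Hist2h2be at 0.354 and 1.70 times. The other two opposite pairs were Hist1h2ad with Hist1h2bf and Hist3h2a with the pseudogene Hist3h2bb-ps. In the control libraries Hist1h2bf and Hist3h2bb-ps had 0 to 5 counts, Hist2h2ac 0 to 12 and Hist1h2ac 0 to 14, so that the ratios of these 4 genes are imprecise. Of the 5 opposite pairs only Hist1h2ae with Hist1h2bg does not rest on one of them. Hist1h2bg shares 39.0% of its 150-base windows with other genes, most with Hist1h2bc, and Hist1h2ae shares 24.5%. Their counts may therefore hold reads of other genes. Among the pairs with both genes lower, Hist1h2bn had 0 to 7 counts.

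The second comparison asked whether the mutant clones differ from the controls in non-ciliated cells. Here most histone genes had a higher mean in the mutants, but calls were made only with libraries as samples. Of the 60 genes with a count, the mean of the clone means was higher in mutants for 52 and lower for 8, against 46.4% and 53.6% of all genes with a count. Both mutant clones were above all 4 controls for 15 of 60 genes (5.96% of all genes) and below all for 0 (5.63%). Without the libraries that stood apart it was 16 genes (7.61% of all genes). The edgeR test could be run on 41 of the 68 genes. It called 8 higher, against 0.491% of 12012 genes tested, and 0 lower, against 2.57%. Treating each clone as 1 sample gave 0 calls in edgeR (0 of 13406 genes in all), with 7 of 53 histone genes tested at an unadjusted p under 0.05 (4.34% of all genes), and so did a voom fit with the clone as a block (0 of 12012 genes higher and 0.0749% lower). Without replicate 1 there were 12 calls higher (0.58% of all genes), and without replicate 2, 3 or 4 there were 2 (0.15%), 3 (0.141%) and 1 (0.141%). A gene can pass the filter through the libraries in which it is high, and Hist1h2bl (0.454 CPM in controls) and Hist1h2bm (0.508 CPM) were low in controls, so the count among tested genes is no support by itself. Without a filter, 7 of 60 genes were called higher (0.712% of all genes) and 0 lower (2.48%). With libraries as samples and the filter, 22 of the 41 genes were at an unadjusted p under 0.05, all higher (30.3% of all genes in either direction), and DESeq2 called 8 higher (0.508% of all genes) and 0 lower (2.96%). With 2 against 4 clones the exact permutation test cannot go below 0.0667, so it cannot pass 0.05 for any gene.

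Hist1h2bp, an H2B gene, was at 0.325 in AB_Co, 0.792 in BE_Co1, 0.597 in BE_Co2 and 0.747 CPM in BE_Co3, and at 1.12 in BE_W34 and 1.79 CPM in BE_W60. The log2 fold change was 1.24 ± 0.29 (edgeR, adjusted p = 0.00569), with the smallest possible exact permutation p of 0.0667. Hist1h4b reached the same permutation p, with 0.548 in AB_Co, 1.34 in BE_Co1, 1.07 in BE_Co2 and 1.29 CPM in BE_Co3 against 1.73 in BE_W34 and 3.17 CPM in BE_W60 (log2 fold change 1.21 ± 0.28, edgeR, adjusted p = 0.00551). In both genes AB_Co was the lowest control and BE_W60 the highest clone. Hist1h2bm was at 0.508 ± 0.167 against 1.07 ± 0.120 CPM (log2 fold change 1.06 ± 0.26, edgeR, adjusted p = 0.00858, exact permutation p = 0.0667).

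Hist1h2bk was at 1.22 to 3.18 CPM in the controls, 3.65 CPM in BE_W34 and 6.21 CPM in BE_W60. The 4 libraries of BE_W60 were at 2.89, 7.48, 7.49 and 6.99 CPM, and only library 1 lay within the range of the controls. The log2 fold change was 1.10 ± 0.24 (edgeR, adjusted p = 0.00343, exact permutation p = 0.133). Hist1h2an had the largest log2 fold change of these genes, 1.279 ± 0.35 (edgeR, adjusted p = 0.0157), with clone means of 0.504 to 1.37 CPM in controls, 2.19 CPM in BE_W34 and 2.74 CPM in BE_W60. Hist1h2ag was at 0.677 to 1.72 against 2.10 and 3.11 CPM (log2 fold change 1.07 ± 0.28). Hist1h2ai and Hist1h2bl were called too, with log2 fold changes of 1.22 ± 0.29 and 1.003 ± 0.33, but BE_W34 (2.38 and 0.785 CPM) lay below BE_Co1 (2.63 and 0.804 CPM) in both. The exact permutation p was 0.2 for each of these, and 0.133 for Hist1h2an and for Hist1h2ag.

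Hist1h3c passed the adjusted p but not the 2-fold limit, at 0.96 ± 0.21 (edgeR, adjusted p = 0.00343). It was at 3.28 to 7.88 CPM in the controls, 9.84 CPM in BE_W34 and 14.9 CPM in BE_W60, so that both mutant clones were above every control. Both mutant clones were above every control also for Hist1h4d (0.90 ± 0.24), Hist1h2ae (0.90 ± 0.23) and Hist1h3h (0.74 ± 0.22). Of the genes that rose in ciliated controls, 0 were called here. Hist1h1c was at 4.97 ± 1.71 in controls (n = 4 clones) and at 7.70 and 3.37 CPM in BE_W34 and BE_W60, with a log2 fold change of 0.16 ± 0.25 (edgeR, adjusted p = 0.698). Hist1h2bc had a log2 fold change of 0.00 ± 0.18 and Hist3h2a of -0.28 ± 0.17 (edgeR, adjusted p = 0.992 and 0.269). Summed over classes, the ratio of mutants to controls was 1.75 for H4, 1.68 for H3, 1.61 for H2A, 1.26 for H1 and 1.23 for H2B. The last 2 sums are mostly counts of Hist1h1c, Hist1h2bc and Hist2h2be, which together had a ratio of 1.06, against 1.64 for the other 65 genes.

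**Figure D3:**
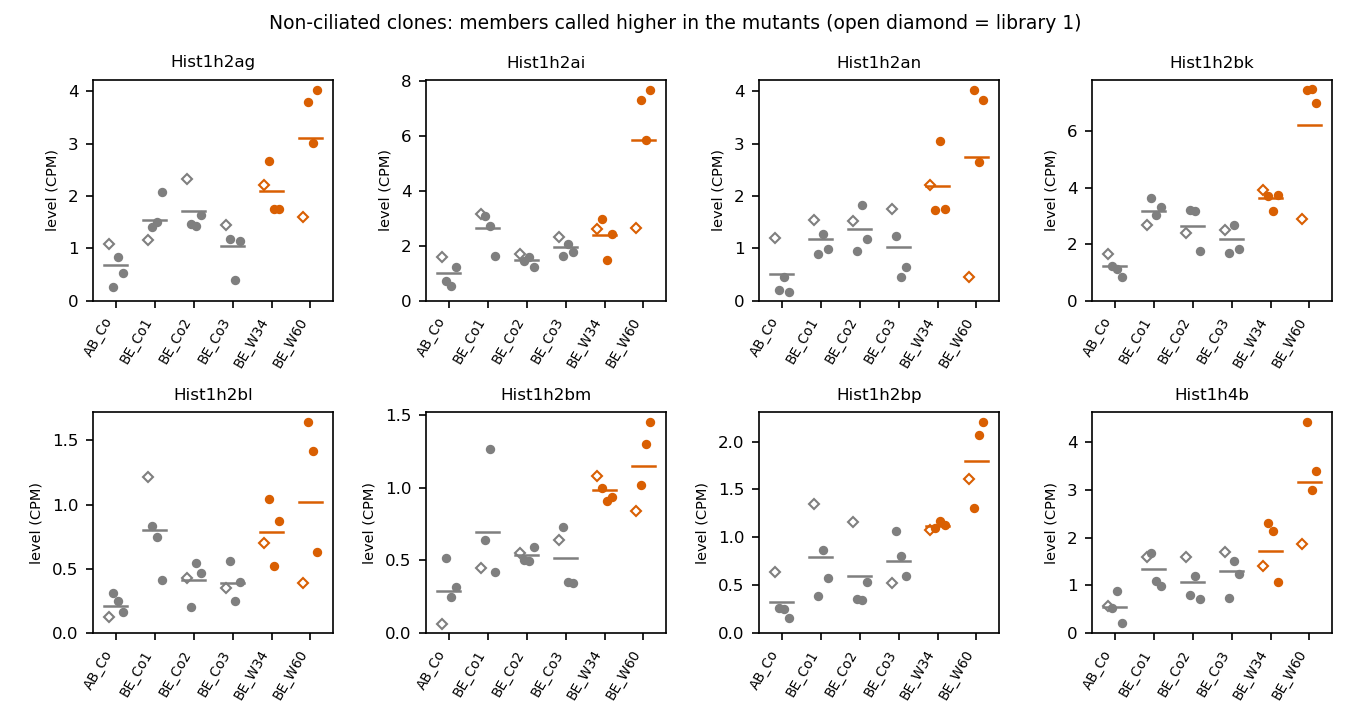
CPM of the 8 called histone genes in non-ciliated cells, with 1 point per library (an open diamond for library 1) and a bar for the mean of each clone. By these means AB_Co is the lowest control and BE_W60 the highest clone in each panel, and library 1 of BE_W60 is the lowest of its clone in each panel but that of Hist1h2bp.

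The size of this difference depended on single clones. BE_W60 alone was above all 4 controls in 29 of 60 genes (19.7% of all genes) and below all in 1 (14%). BE_W34 alone was above in 21 (16.4%) and below in 0 (15.3%). Among the controls, BE_Co1 was above the other 3 in 37 of 60 genes (20.4% of all genes), and AB_Co was below the other 3 in 28 (21%). Without BE_W60 the test called 0 histone genes higher (0.275% of all genes), without AB_Co 3 (1.34%) and without BE_Co1 13 (0.486%).

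The third comparison asked the same in ciliated cells. Here the 3 mutant clones did not act alike, and no histone gene was called. Of 14 genes tested, edgeR called 0 higher (0.418% of 11950 genes tested) and 0 lower (0.226%), with 5 at an unadjusted p under 0.05 (19.2% of all genes), and DESeq2 also called 0 (0.552% of all genes higher and 0.527% lower). The mean of the clone means was higher in mutants for 46 and lower for 14 of 60 genes, against 49.9% and 50.1% of all genes. All 3 mutant clones were above all 4 controls for 1 of 60 genes (1.22% of all genes), Hist1h4h, and below all for 0 (0.909%). Without the libraries that stood apart it was 8 genes above (3.25%) and 1 below (2.62%). Hist1h4h, named after its values were seen, was at 0.258 to 0.582 CPM in controls and at 0.675, 0.956 and 0.639 CPM in WDR341, WDR343 and WDR60 (log2 fold change 0.70 ± 0.28, edgeR, adjusted p = 0.165). WDR341 alone was above all controls in 20 genes (11.4% of all genes) and below in 6 (10.3%), WDR343 in 23 (21.5%) and 4 (13.2%), and WDR60 in 11 (16.8%) and 11 (11.4%).

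Hist3h2a and Hist1h2bc passed the adjusted p below the 2-fold limit. Hist3h2a was at 3.46, 5.30, 4.23 and 5.21 CPM in conD8, conH12, conA4 and conG7, at 6.43 CPM in WDR341, at 11.98 CPM in WDR343 and at 4.37 CPM in WDR60. The highest value came from WDR343, and WDR60 lay within the controls. The log2 fold change was 0.73 ± 0.19 (edgeR, adjusted p = 0.0345, exact permutation p = 0.114), 0.24 (adjusted p = 0.427) without WDR343 and 0.997 without WDR60. Hist1h2bc was at 13.8 to 31.0 CPM in the controls, 42.8 CPM in WDR341, 46.7 CPM in WDR343 and 20.5 CPM in WDR60 (log2 fold change 0.65 ± 0.18, edgeR, adjusted p = 0.0464, exact permutation p = 0.229). Without the libraries that stood apart, which removes WDR60 wholly, both genes were called, at 1.05 and 1.004 (0.82% of all genes called higher and 0.696% lower). With the replicate number as a block, neither passed (adjusted p = 0.0601 and 0.0751). Hist1h1c showed the same order of clones, at 39.7 in WDR341, 59.6 in WDR343 and 20.2 CPM in WDR60 against 16.05 to 36.4 CPM in the controls (log2 fold change 0.52 ± 0.21, edgeR, adjusted p = 0.167). Hist1h3c was at 0.787 to 1.37 CPM in the controls and at 1.13 to 1.38 CPM in the mutants, and Hist1h2bk at 0.314 to 0.364 and 0.298 to 0.424 CPM. With 3 against 4 clones the smallest possible exact permutation p is 0.0286, and it was 0.114 or more for each of the 23 genes examined singly.

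**Figure D4:**
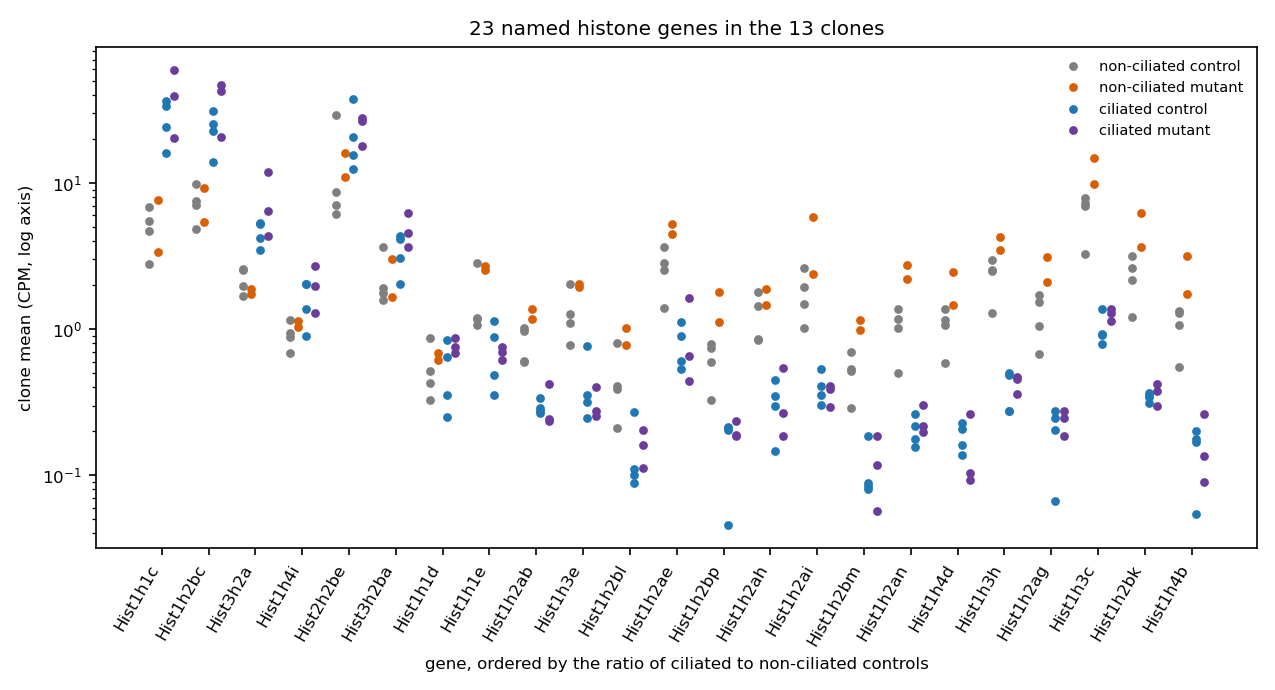
Clone mean CPM (log axis) of 23 clustered histone genes, with 1 point per clone, colours for state and genotype, and genes ordered from left to right by falling ratio of ciliated to non-ciliated controls. Hist1h1c and Hist1h2bc at the left are higher, and Hist1h2bk and Hist1h4b at the right lower, in every ciliated control clone than in every non-ciliated one.

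The interaction of mutant and state, fitted on all 52 libraries, tested whether the mutant effect differs between states. Of 44 histone genes tested, 1 was called higher (1.12% of 12544 genes tested) and 0 lower (0.0638%), with 9 at an unadjusted p under 0.05 in either direction (14.4% of all genes) and DESeq2 called 1 higher (1.68%) and 1 lower (0.175%). Hist3h2a was the gene called, with a difference of log2 fold changes of 1.02 ± 0.26 (edgeR, adjusted p = 0.0302). The adjusted p was 0.0731 to 0.254 when any 1 replicate number was left out, so that the call was lost each time. Without WDR343 the difference was 0.53 (adjusted p = 0.297). The call was also lost without BE_W34, BE_W60, BE_Co2, conD8 or conA4 (adjusted p = 0.0688 to 0.1001), without AB_Co, where the difference was 0.93, and when each clone was 1 sample (adjusted p = 0.9999). For Hist1h2ai, which was called higher in non-ciliated mutants, the difference was -1.35 ± 0.40 (edgeR, adjusted p = 0.0675), and for Hist1h2bk -1.01 ± 0.34 (adjusted p = 0.114). It was therefore not shown that the higher level in non-ciliated mutants is particular to that state.

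On chromosome 13 the 415 other genes tested had a median log2 fold change of -0.04 in non-ciliated mutants, and the 20 within 2 Mb of the Hist1 cluster of -0.07, against -0.000169 for all other genes. Between the states of the controls the medians were 0.01 on chromosome 13 (414 genes) and 0.14 within 2 Mb (21 genes), against 0.02 for all other genes.

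Other genes of histone supply and DNA replication were read from lists chosen with earlier results of these data known, and none of them was called at the 2-fold limit in any of the 3 comparisons. Their counts below are at an adjusted p under 0.05 with no fold limit, which 60.9% of all genes tested passed between the states of the controls, 15% in non-ciliated mutants and 3.17% in ciliated mutants (edgeR, either direction). Between states and in non-ciliated mutants the shares of these lists were mostly near those of all genes. Of 10 replacement histone genes tested, 6 were higher and 1 lower in ciliated controls, among them H2afx (0.88 ± 0.14), which codes for the histone phosphorylated at DNA breaks, and H1f0 (0.88 ± 0.26), the linker histone of resting cells. Control clones overlapped between states for both. H1f0 was 846 CPM in AB_Co, against 488 in conG7, 493 in conD8, 694 in conA4 and 1515 CPM in conH12. H2afx was 72.7 CPM in BE_Co2 and 70.8 CPM in conA4. In non-ciliated mutants 1 was higher, Cenpa (0.37 ± 0.06), the H3 variant of centromeres, and in ciliated mutants 0. Of 17 genes for histone transcription and 3′ end processing, 5 were higher and 7 lower in ciliated controls. Npat, the coactivator of histone transcription, was at 0.35 ± 0.09 and Slbp, which binds the stem-loop, at 0.25 ± 0.07, whereas the cleavage factors Cpsf3 and Cpsf2 were at -0.60 ± 0.06 and -0.57 ± 0.07. In non-ciliated mutants 2 were higher, Slbp (0.23 ± 0.07) and the cap-binding gene Ncbp2 (0.16 ± 0.05). For both, BE_W34 lay within the range of the controls. Slbp was at 210 CPM in BE_W34 and 253 CPM in BE_W60, against 178 to 219 CPM in the controls. Ncbp2 was at 121 CPM in BE_W34 and 133 CPM in BE_W60, against 104 to 126 CPM. In ciliated mutants Coil was higher and Sympk lower.

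Of 12 histone chaperone genes, 5 were higher and 3 lower in ciliated controls, with Chaf1b, a subunit of the chromatin assembly factor, at 0.73 ± 0.06 and the importin Ipo4 at -0.87 ± 0.11. In non-ciliated mutants only Asf1a passed, at 0.21 ± 0.07, and in ciliated mutants 0 passed. Of 30 genes of S phase, 11 were higher and 6 lower in ciliated controls, among them the transcription factor E2f1 (0.89 ± 0.09), the replication clamp Pcna (0.60 ± 0.08) and the ribonucleotide reductase genes Rrm1 (-0.57 ± 0.06) and Rrm2 (-0.51 ± 0.07). In non-ciliated mutants 4 S phase genes were higher and 0 lower, namely Tyms (0.38 ± 0.08), Rfc5 (0.31 ± 0.08), Mcm3 (0.23 ± 0.07) and Mcm7 (0.19 ± 0.06). Of these, only Tyms had both mutant clones above every control. BE_W34 lay below every control for Mcm7 (521.1 against 521.9 to 546.6 CPM) and below AB_Co for Rfc5 (145.7 against 149.3 CPM). BE_W60 lay below BE_Co1 for Mcm3 (391 against 409 CPM). In ciliated mutants Rfc5 was higher and Cdt1 lower.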

How the data were processed

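RNA from 13 clones, counted by label, was sequenced as 4 technical replicate libraries each. The authors aligned reads to mouse GRCm38/mm10 with Rsubread and counted them per gene with featureCounts, and the deposited values are raw counts per gene symbol. The processing notes also name R 3.4.4 and DESeq2 1.18.1. Strand and multi-mapping settings are not given in the sources used here. Clones were grouped by the labels. Counts were tested with edgeR 4.0.16 (quasi-likelihood test, TMM, filterByExpr) in R 4.3.3, with libraries as samples and Benjamini-Hochberg adjustment over all genes tested. Genes were called at an adjusted p under 0.05 where the log2 change reached 1 in size. CPM used TMM-scaled totals, and the exact permutation tests used clone means of log2 CPM with a prior count of 2. Alternatives used DESeq2 1.42.0, limma 3.58.1 (voom with the clone as a block), other filters and scaling, libraries summed per clone, a replicate block, and each clone or replicate left out. Leaving out libraries that stood apart was chosen after seeing the data. Stem-loops and coordinates came from GENCODE vM21 transcripts and promoters from RefSeq. The members and lists were chosen with earlier results of these data known. Genes were named as the 3 of each class with the highest mean CPM, up to 10 called per comparison by size, and tested genes without overlap of clone means in both states. Hist1h2bg, Hist1h2ad, Hist1h4h and the genes listed by pair, overlap or count were named outside that rule, after their values were seen. Of 78 pairs of libraries from the same clone, 0 held identical counts. The fitting scripts were tested on simulated data.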

Additional observations from a re-analysis of the deposited data

Results flagged for a closer look

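In 61 groups of 4 clones or libraries, 8 held a value far from the others, where chance gives about 1 in 20 groups. Among the non-ciliated controls, Hist2h2be was 29.0 CPM in AB_Co against 6.10 to 8.72 CPM in the other three clones. In the same clone Hist3h2ba was 3.67 CPM against 1.58 to 1.92 CPM. Hist1h1e was 2.85 CPM in BE_Co1 against 1.06 to 1.19 CPM.

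Among the ciliated controls, Hist1h2bl was 0.269 CPM in conG7 against 0.0882 to 0.110 CPM, and Hist1h2bm was 0.186 CPM in conG7 against 0.0807 to 0.0891 CPM. Hist1h2bp was 0.0457 CPM in conD8 against 0.205 to 0.216 CPM. These 3 genes had few counts in ciliated cells.

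Within clones, the summed level of library 1 of BE_W60 was 78.7 CPM against 128 to 130 CPM in its other libraries, and that of library 1 of conH12 was 137 CPM against 119 to 122 CPM. The mutant effect on Hist3h2a differed between states by 1.02 on the log2 scale in the interaction test.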

How the results depend on the processing

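For the states of the controls, 4 histone genes were higher and 10 lower. With no limit on the fold change 7 were higher and 12 lower, where 60.9% of all genes tested passed in either direction. The lower count, 10 of 21 tested, was 17 of 30 with all 7 ciliated against all 6 non-ciliated clones (573 of 11985 genes in all). It was 0 of 5 with at least 10 counts in every library (294 of 10646 genes in all). It was 18 of 50 with libraries summed per clone, 29 of 60 with no filter and 4 of 21 with voom, with shares of all genes given above. Leaving out a clone gave 3 to 5 higher and 8 to 18 lower, and leaving out a replicate number 4 higher and 9 to 11 lower. In ciliated mutants the count of 0 higher became 2 without the libraries that stood apart and 2 with no limit on the fold change. In non-ciliated mutants the count of 8 higher of 41 tested became 2 of 11 with at least 10 counts in every library (16 of 10786 genes in all). It became 0 of 53 with libraries summed (0 of 13406) and 0 of 41 with voom (0 of 12012). It ranged from 0 (without BE_W60) to 13 (without BE_Co1) over clones left out and from 1 to 12 over replicate numbers left out. In the interaction, 1 higher became 0 with libraries summed and 0 with voom, and 0 to 1 when a clone or replicate number was left out. The 0 lower became 1 by DESeq2, 2 without the libraries that stood apart and 0 to 3 with a clone or replicate number left out. The cause was not tested. Replicate numbers were not taken to pair libraries: same-numbered libraries had a mean correlation of -0.00729 over 60 non-ciliated pairs (7 over 0.1, highest 0.158) and of 0.0262 over 84 ciliated pairs (18 over 0.1, highest 0.614). With the replicate number as a block, 0 and 0 were called higher and lower in ciliated mutants (35 and 17 of 11950 genes in all). In non-ciliated mutants the counts were 7 and 0 (52 and 272 of 12012), and between states 4 and 10 (739 and 471 of 11856). In the interaction they were 1 and 0 (106 and 6 of 12544). The summed level without TMM factors was 90.1 CPM in BE_W34, 177 CPM in WDR343 and 136 CPM in conH12. No single fold change recomputed here changed sign in a called gene, but the strict filter removes most of the genes that were lower: its 5 genes had a median log2 fold change of 1.06 between states, against -0.94 for the 21, and of 0.45 against -0.41 for the 44 in the interaction.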
